A study of Capsella grandiflora and Capsella rubella with 18 samples.

Results

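The 184 genes described here were seen in flower buds and not in leaves, and their transcripts were less abundant in buds of the selfing Capsella rubella than in buds of the outcrossing Capsella grandiflora. They were chosen from 19350 gene rows by 3 conditions: FPKM listed at 0 in all 10 leaf libraries, an average across the 8 buds of 5 FPKM or more, and a species difference of at most -0.75. FPKM expresses sequenced fragments relative to the length of the transcript and the depth of the library, and the difference is the mean log2(FPKM + 1) of the C. rubella buds minus that of the C. grandiflora buds. The first 2 conditions were met by 324 bud-only genes, of which the 184 are 56.8%, and the remaining 140 are called the other bud-only genes. The species difference chose the genes, so it is given throughout as a description and carries no test.

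The libraries were made from polyadenylated RNA of flower buds at mixed stages from 4 C. rubella and 4 C. grandiflora samples, and of maturing leaves from 10 C. grandiflora samples, all raised in a greenhouse. By origin, Cr_bud 1 came from Kalavrita, Cr_bud 2 from San Luca in Italy, Cr_bud 3 from Megalopoli and Cr_bud 4 from Samos, a line that had been inbred in the greenhouse. Cg_bud 1, Cg_bud 2 and Cg_bud 3 grew from seed collected in the wild at Monodendri, Pili and Metsovo, and Cg_bud 4 was an F1 plant of a cross within Corfu. The leaf samples were 9 from wild-collected seed and 1 F1 from Corfu, and no C. rubella leaf was analysed here. No genotype or treatment other than species, origin and tissue is given, nor the share of each bud stage in a sample.

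A flower bud holds organs that a leaf lacks: anthers, where the tapetum feeds the developing pollen, and carpels, where ovules form behind the stigma and style. Genes silent in leaves and abundant in buds commonly act in these organs. C. rubella descends from a self-incompatible ancestor like C. grandiflora, and it is known for the selfing syndrome of smaller flowers and less pollen. In RNA from whole buds, fewer cells of a type and less RNA per cell cannot be told apart. No gene names accompany the IDs used here, so each gene appears under its ID, with positions in the CR v1 JGI build. No role is given to any of them, and the tissue labels could not be checked against marker genes.

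The bud columns had similar medians (10.23 to 11.02 FPKM) and sums (576725 to 657140 FPKM). Their depth is unknown. Cr_bud 1 holds the value 0.5 in 1137 rows and 0 in 4, and Cg_bud 1 holds 0.5 in 1023 rows and 0 in 6, whereas the remaining 6 list 1039 to 1520 rows at 0. This touched the 184 genes once, in a single value of Cr_bud 1. Leaf columns carry more digits and larger sums than bud columns, so a 0 in leaf and a 0 in bud are not alike.

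The genes spanned a wide range of abundance. Their means ran from 0.708 to 2283 FPKM in C. rubella buds and from 6.26 to 4179 FPKM in C. grandiflora buds, with medians of 11.8 and 30.1 FPKM. In C. rubella 30 of them averaged at least 100 FPKM, and in C. grandiflora 45 did. Most were lower but not silent in C. rubella: 104 stood at 5 FPKM or more in all 4 C. rubella buds, and 1 was below 1 FPKM in all 4. Together the 184 genes held 2.45% ± 0.642 of a C. rubella column's FPKM sum and 5.41% ± 0.648 of a C. grandiflora column's (SD over 4 libraries each). By library these shares were 2.53%, 2.60%, 3.11% and 1.57% in Cr_bud 1 to 4, and 5.93%, 5.79%, 4.50% and 5.43% in Cg_bud 1 to 4. The shares of the species did not overlap, and Cr_bud 4 was the lowest of all.

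**Figure D1:**
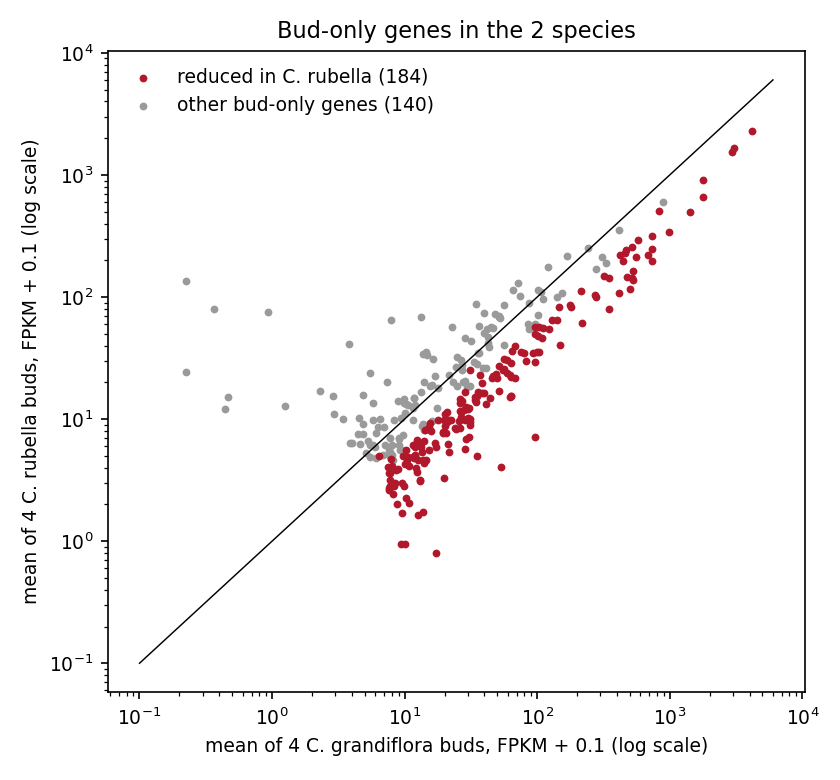
Mean FPKM of each bud-only gene in the 4 C. rubella buds (vertical axis) against the 4 C. grandiflora buds (horizontal axis), both with 0.1 added and on log scales; the line marks equal levels. The 184 reduced genes (red) lie below the line by the rule that chose them, from below 1 to above 1000 FPKM, and the 140 other bud-only genes (grey) lie on both sides of it.

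The difference had a median of -1.27, with quartiles of -1.60 and -1.03 and extremes of -4.26 and -0.76. It was at most -1 in 145 genes and at most -2 in 20. The median was much the same at all levels: -1.26 in 89 genes with a bud mean under 20 FPKM, -1.20 in 59 genes between 20 and 100, and -1.32 in 36 genes above. All 4 C. rubella libraries lay below all 4 C. grandiflora libraries in 127 of the 184 genes, where 14.1% of the 16923 rows tested between species showed this order. In the fit of all tested rows (limma, Benjamini-Hochberg adjusted p below 0.05), 135 of the 184 were called lower in C. rubella, where 12% of tested rows were. All 184 had passed the filter of that fit. The genes were picked on this contrast, so nothing is read from either count. The p-values behind the calls set each difference against the spread between these libraries, which differ in origin within each species.

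The cut at -0.75 fell in a continuous range. Just inside it were Carubv10027965m at -0.76, Carubv10011383m at -0.77 and Carubv10019138m at -0.78. Just outside were Carubv10015085m, Carubv10016442m and Carubv10010870m, at -0.74, -0.73 and -0.73. At the bud mean of 5 FPKM, Carubv10018441m was inside with 5.04 FPKM and Carubv10002587m outside with 4.99 FPKM. At the leaf condition, Carubv10027738m was outside with 0.0227 FPKM in its highest leaf library.

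Much of the FPKM of the group came from few genes: the 8 most abundant carried 56.2% of it in C. rubella and 50% in C. grandiflora, and the top 3 carried 36.8% and 30.1%. The most abundant was Carubv10002873m (scaffold 6, 2381124 to 2382729), with 2355, 1278, 4208 and 1291 FPKM in Cr_bud 1 to 4 and 4273, 4663, 3991 and 3787 FPKM in Cg_bud 1 to 4. The species overlapped, because Cr_bud 3 reached the level of the C. grandiflora buds, while Cr_bud 2 and Cr_bud 4 stood far below it. Its difference was -1.05.

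Carubv10003776m (scaffold 6, 2348637 to 2350217) had 1881, 2059, 1776 and 965 FPKM in Cr_bud 1 to 4 and 4584, 3207, 2098 and 2343 FPKM in Cg_bud 1 to 4. Every C. rubella library was lower than every C. grandiflora library, with Cr_bud 2 just under Cg_bud 3. Its neighbour Carubv10003415m (2345600 to 2347077) followed it closely, and the ratio of Carubv10003776m to it ran from 1.01 to 1.15 over the 8 buds. Rows this alike may draw on shared reads if they are near copies, which was not tested.

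Carubv10018858m (scaffold 5, 3126941 to 3128090) had 655, 998, 637 and 340 FPKM in Cr_bud 1 to 4 and 2390, 1801, 1333 and 1580 FPKM in Cg_bud 1 to 4, a difference of -1.5. Carubv10007618m (scaffold 7, 16992621 to 16993006) had 1000.2, 977, 1067 and 570 FPKM in C. rubella and 2508, 1812, 1289 and 1455 FPKM in C. grandiflora, a difference of -0.96. Carubv10025408m (scaffold 4, 8386545 to 8387074) had 641, 451, 655 and 230 FPKM in C. rubella and 1503, 1379, 1183 and 1580 FPKM in C. grandiflora, a difference of -1.62. In all 3 the species did not overlap and Cr_bud 4 was lowest. Carubv10021513m (scaffold 2, 12157039 to 12158479) had 303, 256, 554 and 260 FPKM in C. rubella and 898, 1040, 950 and 1079 FPKM in C. grandiflora, with Cr_bud 3 apart from the other C. rubella buds. Carubv10003577m, the eighth by level, averaged 502 ± 281 FPKM in C. rubella and 833 ± 311 FPKM in C. grandiflora (SD, n = 4 each), and its species overlapped. Of these 8 genes, 4 were called lower in the fit (12% of tested rows were) and 6 showed no overlap (14.1% of tested rows did).

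The largest differences belonged to genes of lower level. Carubv10006368m (scaffold 7, 11412010 to 11413332) had 22.9, 2.36, 2.12 and 0.90 FPKM in Cr_bud 1 to 4 and 123, 54.6, 64.2 and 139 FPKM in Cg_bud 1 to 4, a difference of -4.26. Cr_bud 1 stood well above the other C. rubella libraries and still under every C. grandiflora library. Carubv10012439m (scaffold 1, 8344579 to 8345604) had 5.61, 3.61, 3.35 and 3.26 FPKM in C. rubella and 19.2, 63.0, 44.9 and 86.4 FPKM in C. grandiflora, a difference of -3.29. Carubv10016482m (scaffold 3, 5500099 to 5501809) had 0.73, 0.73, 0.59 and 0.78 FPKM in C. rubella and 21.4, 25.3, 6.71 and 14.8 FPKM in C. grandiflora, a difference of -3.26. It was the gene below 1 FPKM in every C. rubella bud.

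Carubv10006531m (scaffold 7, 2445410 to 2447242) was expressed at 4.92 ± 1.53 FPKM in C. rubella and 35.2 ± 7.5 FPKM in C. grandiflora (SD, n = 4 each), a difference of -2.62. Its SD of log2(FPKM + 1) was 0.34 in C. rubella and 0.31 in C. grandiflora. These lie below the medians of the 184 genes (0.54 and 0.38) and above those of all tested rows (0.17 and 0.20). Carubv10024682m on scaffold 4 averaged 0.855 ± 0.62 FPKM in C. rubella and 9.98 ± 4.09 FPKM in C. grandiflora (SD, n = 4 each). Carubv10027733m on scaffold 8 averaged 1.53 ± 0.764 FPKM in C. rubella and 12.5 ± 3.62 FPKM in C. grandiflora (SD, n = 4 each). The species did not overlap in these 3 genes.

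In some genes a library listed at 0 weighed on the difference. Carubv10021969m (scaffold 2, 244185 to 244500) had 10.5, 27.1, 0 and 0 FPKM in Cr_bud 1 to 4 and 41.9, 25.2, 29.6 and 26.8 FPKM in Cg_bud 1 to 4. Carubv10015784m (scaffold 3, 8813734 to 8814154) had 14.7, 33.3, 39.0 and 0 FPKM in C. rubella and 87.4, 52.8, 83.0 and 46.7 FPKM in C. grandiflora. Carubv10021405m (scaffold 2) had 20, 49.2, 30.8 and 0 FPKM in C. rubella and 38.3, 15.5, 10.95 and 58.4 FPKM in C. grandiflora. Its species overlapped broadly and its difference was -0.94, but without Cr_bud 4 it was 0.31, the other direction. It was the 1 gene of the 184 whose difference changed sign when a single bud library was left out. These 3 genes had the largest SDs within C. rubella. In all, 7 of the 184 were listed at 0 in at least 1 C. rubella bud and 1 in a C. grandiflora bud.

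**Figure D2:**
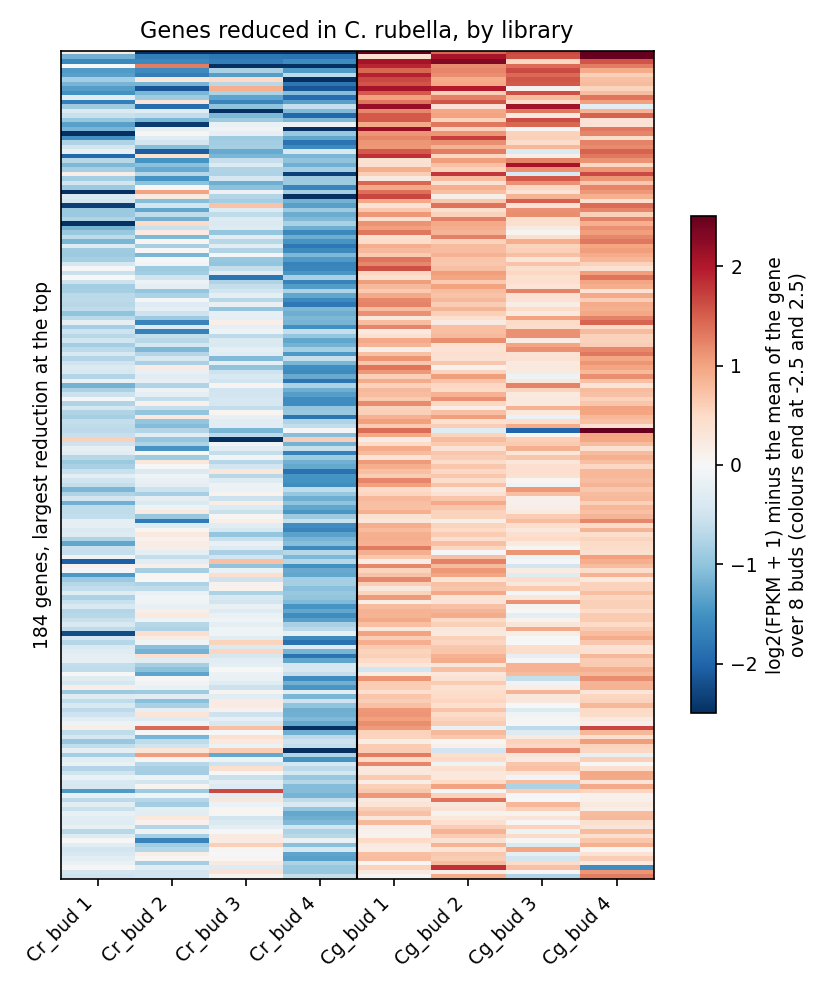
Log2(FPKM + 1) of the 184 genes in each bud library, minus the gene's mean over the 8 buds, with genes ordered from the largest reduction at the top. Cr_bud 4 is the most evenly low column and Cg_bud 3 the palest of the C. grandiflora columns, and single dark blue cells mark libraries far below the mean of their gene.

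The rule used species means, and a library far below the others lowers the mean of its species. A low C. rubella library thus helps a gene to meet the difference cut, and a low C. grandiflora library hinders it. The spread within a species is described here, but its contrast between the 184 genes and the other bud-only genes is partly set by the rule. The median SD of the 184 genes was 0.54 on the log2 scale in C. rubella and 0.38 in C. grandiflora. The other bud-only genes were spread widely too, with 0.46 and 0.74, and over all tested rows it was 0.17 and 0.20. The SD was larger in C. rubella in 135 of the 184 genes (73.4%), in 49 of the 140 other bud-only genes (35%) and in 43.9% of tested rows. Without Cr_bud 4 the median SD of the 184 genes in C. rubella was 0.41, and without Cg_bud 3 that in C. grandiflora was 0.27, both still above all tested rows. The share with the larger SD in C. rubella moved with these libraries. Without Cr_bud 4 it was 99 of the 184 genes, 34 of the 140 other bud-only genes and 40.4% of tested rows. Without Cg_bud 3 it was 153 of the 184 genes, 100 of the 140 and 54.0% of tested rows. Without both Cr_bud 4 and Cg_bud 3 it was 69.6% of the 184 genes, 61.4% of the 140 and 49.7% of tested rows. The contrast in this share between the 184 genes and the other bud-only genes was thus much smaller when Cg_bud 3 was left out.

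Within C. rubella, Cr_bud 4 was low for many of the genes. The median deviation from the gene's own species mean was 0.05 in Cr_bud 1, 0.23 in Cr_bud 2, 0.31 in Cr_bud 3 and -0.52 in Cr_bud 4. Cr_bud 4 was the lowest C. rubella library in 112 of the 184 genes (60.9%). It was so in 78 of the 140 other bud-only genes (55.7%), with a median deviation of -0.33, and in 29.9% of tested rows, with a median deviation of -0.02. A gene that is very low in Cr_bud 4 is more likely to meet the difference cut, so the count among the 184 genes is partly set by the rule. Cr_bud 3 was the highest in 83 genes and Cr_bud 2 in 70. Cr_bud 4 is the greenhouse-inbred line and Cr_bud 2 the Italian one, but each origin is a single library, so origin cannot be told apart from other differences between samples.

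Within C. grandiflora the median deviation was 0.14 in Cg_bud 1, -0.02 in Cg_bud 2, -0.33 in Cg_bud 3 and 0.14 in Cg_bud 4. Cg_bud 3 was the lowest in 104 of the 184 genes (56.5%) and in 32.3% of tested rows. For the other bud-only genes it was lower still, with a median deviation of -0.86, and was the lowest in 106 of 140. It counts in the C. grandiflora mean of every gene, so a gene that is very low in Cg_bud 3 is less likely to meet the cut of -0.75. Without Cg_bud 3 the same rule gave 189 genes, 172 of them among the 184, and without Cr_bud 4 it gave 158, of which 154 were among the 184.

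The 184 genes were not uniform in this respect. In 104 of them Cg_bud 3 was the lowest of the C. grandiflora buds, and there Cr_bud 4 had a median deviation of -0.71 and Cr_bud 2 of 0.41. In the 28 genes where Cg_bud 3 was the highest, Cr_bud 4 was close to its species mean (-0.08) and Cr_bud 2 was at -0.20. Those 28 had lower levels, with median means of 5.09 FPKM in C. rubella and 16.8 FPKM in C. grandiflora, and their median difference was -1.44, against -1.21 in the 104. The 2 sets were formed from the values of Cg_bud 3 and were not tested. All C. rubella libraries lay below the 3 C. grandiflora libraries other than Cg_bud 3 in 156 of the 184 genes. Leaving out a library can only raise this count, which was 127 with all libraries. The genes were picked on this contrast and the share over tested rows was not computed, so nothing is read from the count. Cg_bud 3 was the lowest C. grandiflora library in 40 of the 57 genes in which the species overlapped, beside 104 of all 184. Overlap depends on the lowest C. grandiflora library, so the count of 40 is partly set by that definition.

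The genes that varied most within C. grandiflora showed other patterns. Carubv10024716m (scaffold 4, 12358383 to 12359177) had 1.5, 1.38, 0.80 and 2.85 FPKM in Cr_bud 1 to 4 and 9.35, 2.20, 0 and 43.1 FPKM in Cg_bud 1 to 4. Carubv10019138m (scaffold 5) had 6.40, 4.96, 4.82 and 2.76 FPKM in C. rubella and 9.66, 24.7, 11.1 and 1.49 FPKM in C. grandiflora. Carubv10015286m (scaffold 3) had 1.02, 0, 0.86 and 1.52 FPKM in C. rubella and 16.2, 3.82, 15.2 and 2.07 FPKM in C. grandiflora. Cg_bud 4 stood far above the other C. grandiflora buds in Carubv10024716m, and Cg_bud 1 and Cg_bud 3 did in Carubv10015286m. In Carubv10019138m Cg_bud 2 was high and Cg_bud 4 was low.

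**Figure D3:**
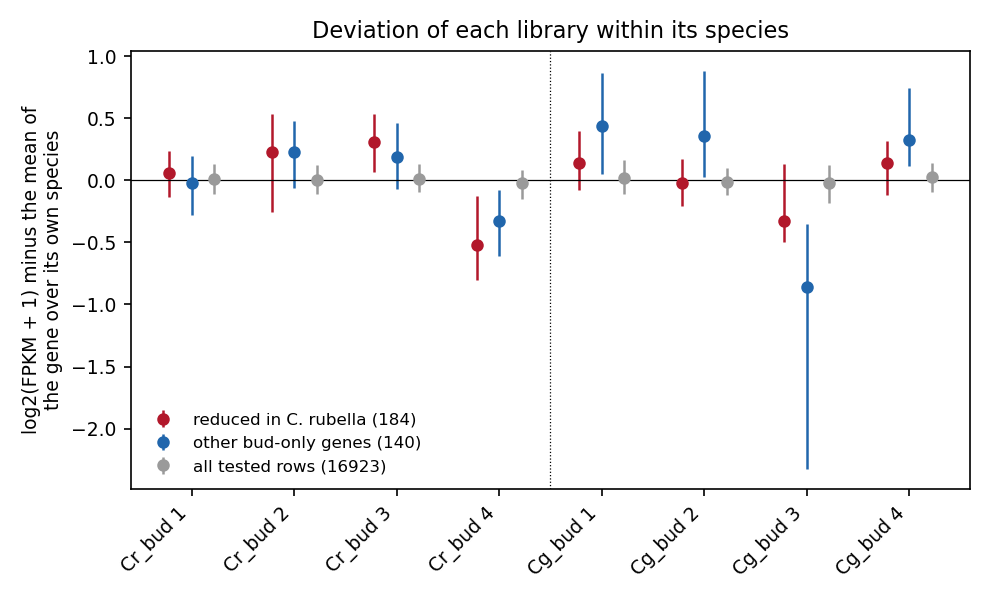
Median deviation (points) and quartiles (bars) of each bud library from the gene's mean over its own species, on the log2(FPKM + 1) scale, for the 184 reduced genes, the 140 other bud-only genes and all 16923 tested rows. Cr_bud 4 and Cg_bud 3 lie lowest in their species for both sets of bud-only genes, at -0.52 and -0.33 for the reduced genes, while all tested rows stay near 0.

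The share of genes lower in C. rubella changed by degrees with the level in leaf. Of the genes with a bud mean of at least 5 FPKM, 6.78% met the difference cut. Among genes listed at 0 in all leaves the share was 56.8%. It was 46.3% of 121 genes whose highest leaf library stood above 0 and up to 0.1 FPKM, and 37.7% of 478 genes above 0.1 and up to 1 FPKM. It was 15.7% of 983 genes above 1 and up to 5 FPKM, and 2.96% of 11640 genes above 5 FPKM. Genes with a difference of at least 0.75 in the other direction made up 16.7%, 14.9%, 13.6%, 8.14% and 5.10% of the same classes. The median SD within species was also larger at the low end. It was 0.51 in C. rubella and 0.45 in C. grandiflora for genes at 0 in leaf, and 0.15 and 0.17 for genes above 5 FPKM in leaf (log2 scale). Leaf came from C. grandiflora alone, and these shares describe the same bud libraries that chose the genes.

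**Figure D4:**
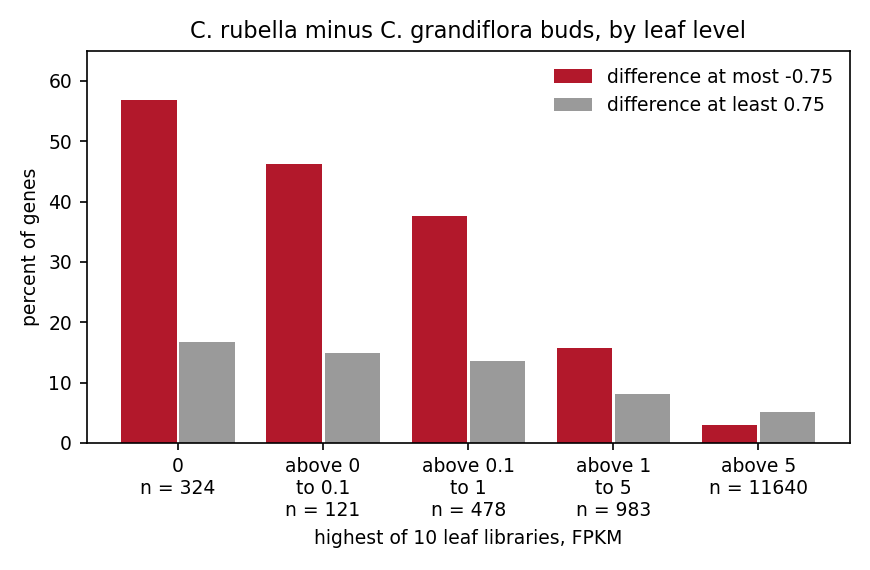
Percent of genes with a bud mean of at least 5 FPKM whose species difference was at most -0.75 (red) or at least 0.75 (grey), by the highest FPKM among 10 C. grandiflora leaf libraries. The red share declines from 56.8% of genes listed at 0 in leaf to 2.96% of genes above 5 FPKM in leaf.

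The genes were short on the genome. The median span of a row, introns included, was 1253 bases (quartiles 847 and 1933), and 60 of the 184 (32.6%) spanned less than 1000 bases. The other bud-only genes were alike, with a median of 1395 bases and 32.1% below 1000 bases. Over all tested rows the median was 2614 bases, and 5.76% spanned less than 1000 bases. Only 2 of the 184 shared their coordinates with another row (1.09%), where 13.6% of tested rows did.

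The 184 genes lay on all 8 main scaffolds, with 180 of them there and 4 on small scaffolds. Scaffold 3 held 40, or 1.58% of its rows, and scaffold 4 held 11, or 0.512% of its rows. Of the 40, 17 lay in a single stretch. From Carubv10015439m to Carubv10015177m (scaffold 3, 7962385 to 8012762), 50.4 kb held 21 rows, and 17 of them were among the 184 genes. Outside the stretch scaffold 3 held 23, or 0.919% of its other rows, and the other scaffolds together held 0.856% of their rows.

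The rows of this stretch followed each other at short but uneven distances. Their members had a median span of 1025 bases (595 to 3089), and the median gap between rows was 1001 bases (688 to 4792). The 17 members summed to 201, 337, 219 and 124 FPKM in Cr_bud 1 to 4 and to 669, 516, 441 and 584 FPKM in Cg_bud 1 to 4. These sums averaged 220.3 FPKM in C. rubella and 552 FPKM in C. grandiflora. The species did not overlap, and Cr_bud 2 was the nearest to the C. grandiflora buds. The differences of the 17 lay between -2.18 and -0.83 with a median of -1.22. Of them, 11 showed no overlap (14.1% of tested rows did) and 12 were called lower (12% of tested rows were). As members they were picked on this contrast, so nothing is read from these counts. Cr_bud 2 was the highest C. rubella library in 15 of the 17 and Cr_bud 4 the lowest in 14.

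Carubv10016029m was the most abundant of the 17, with 5.37, 48.0, 40.8 and 23.9 FPKM in Cr_bud 1 to 4 and 102.5, 102.5, 70.9 and 111 FPKM in Cg_bud 1 to 4. Its lowest library was Cr_bud 1, unlike most of the stretch. The 4 rows of the stretch outside the group had negative differences too. Carubv10015340m, with 19.3 ± 15.5 FPKM in C. rubella and 80.8 ± 17.9 FPKM in C. grandiflora (SD, n = 4 each), missed the rule by a leaf trace of 0.212 FPKM. Carubv10014446m missed it by a leaf library at 1.04 FPKM, with a difference of -1.23. Carubv10015159m was bud-only at -0.55. Carubv10015959m, at -0.57, was low in all buds, below 4 FPKM, did not pass the filter of the fit and reached 24.3 FPKM in 1 leaf library. In both of these rows the species overlapped. Reads of near-identical copies can be divided between rows, and whether these rows are such copies was not tested. Without this stretch 167 genes remained, with a median difference of -1.27, and 123 of them were called lower, where 12% of tested rows were.

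**Figure D5:**
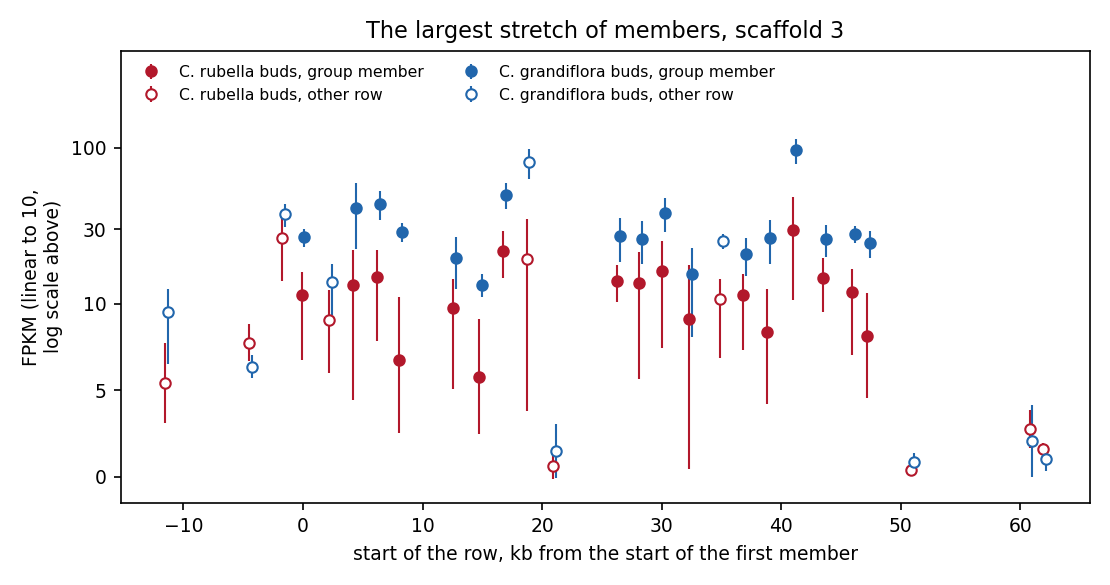
FPKM of every row in the scaffold 3 stretch and 15 kb around it, as mean and SD of the 4 C. rubella buds (red) and the 4 C. grandiflora buds (blue), by distance from the first member; filled points are members, open points other rows, and the vertical axis is linear to 10 and logarithmic above. The 17 members sit between 5.79 and 29.5 FPKM in C. rubella and between 13.3 and 96.7 FPKM in C. grandiflora, each lower in C. rubella.

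Other members also lay close together. In all, 46 of the 184 (25%) were next to another member with no row between, in 14 runs, and 11 of the 140 other bud-only genes (7.86%) were next to another of their kind. Of the 46, 16 were in the scaffold 3 stretch, and without it 30 of 167 members were next to another. Of all 324 bud-only genes, 70 were next to another bud-only gene. Such a share also depends on the size of the set, so the 25% and the 7.86% are not directly comparable. Windows of 50 kb with at least 3 members formed 8 separate stretches, which held 47 members. The other bud-only genes formed 2 such stretches with 9 genes. No test of this difference was made.

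A stretch on scaffold 6 (2345600 to 2385519) held 6 members in 13 rows and was the most abundant, with 40.9% of the FPKM of all 184 genes in C. rubella and 33.4% in C. grandiflora. Besides the neighbours Carubv10003415m and Carubv10003776m it held a run of 4: Carubv10002855m, Carubv10002758m, Carubv10002873m and Carubv10003577m. Carubv10002758m had 26.9, 102, 231 and 54.2 FPKM in Cr_bud 1 to 4 and 180, 364, 180 and 374 FPKM in Cg_bud 1 to 4. Cr_bud 3 was the highest C. rubella library in this gene, in Carubv10002873m and in Carubv10003577m, but not in the pair at the start of the stretch. The 7 rows between them were not lower as a whole, with differences from -0.70 to 0.41 and a median of 0.03. Leaf reached 1 FPKM in 6 of those 7.

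On scaffold 8 (11051974 to 11057596), 4 members lay in a row with none between. Carubv10028603m had 109, 59.0, 56.6 and 18.5 FPKM in Cr_bud 1 to 4 and 149, 334, 74.7 and 308 FPKM in Cg_bud 1 to 4, so that Cr_bud 1 exceeded Cg_bud 3. Carubv10028616m, in the same run, varied less, at 5.26 ± 0.923 FPKM in C. rubella and 21.6 ± 3.82 FPKM in C. grandiflora (SD, n = 4 each). The differences of the 4 genes lay between -1.85 and -0.99.

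On scaffold 2 (12157039 to 12163988), Carubv10021513m, Carubv10021387m and Carubv10021485m formed a run with differences of -1.60, -1.47 and -1.20 and no overlap of the species in any of them. In each of the 3, Cr_bud 3 was the highest C. rubella library. A pair on the same scaffold, Carubv10022427m and Carubv10021849m (13790544 to 13795845), differed by -1.64 and -1.35, and there Cr_bud 2 was the highest. On scaffold 1 (8340735 to 8345604), Carubv10012640m, Carubv10012512m and Carubv10012439m differed by -1.47, -1.56 and -3.29. Carubv10012640m measured 34.9 ± 19.0 FPKM in C. rubella and 92.4 ± 37.5 FPKM in C. grandiflora, and Carubv10012512m 35.4 ± 17.1 and 100.2 ± 32.7 FPKM (SD, n = 4 each). Here Cr_bud 3 was the highest C. rubella library for Carubv10012640m and the lowest for its neighbour Carubv10012512m, unlike in the runs on scaffold 2.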

How the data were processed

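FPKM values were deposited in 1 table of 19350 rows and 18 library columns, all of them used (0 left over). Per the submitters' processing notes, the authors used Bowtie, TopHat and Cufflinks, with versions and settings not stated. The file header names the CR v1 JGI build. Depth is unknown and an FPKM of 0 may be a failed estimate, so no floor is given. Values were used as log2(FPKM + 1), which understates the change of low genes. Rows with at least 1 FPKM in at least 4 of 8 buds were compared between species with limma 3.58.1 (mean trend, R 4.3.3), with Benjamini-Hochberg adjustment over all 16923 rows and a threshold of 0.05; the script was tested on simulated data. Replicates are separate samples in the labels, which do not say whether each is a single plant. The p-values therefore set each difference against the spread between these samples. The genes and lists were chosen with earlier results of these data known. Named genes are the 8 with the highest C. grandiflora mean, the 8 with the most negative difference, those nearest the thresholds, the 6 most abundant runs of adjacent members and the 3 with the largest SD in each species; rows of the scaffold 3 stretch and the examples in the closing section were chosen after their values were seen. Lists of product classes and organ markers could not be applied, since the IDs carry no names. Alternatives were the pseudocount, filter, scaling, thresholds and leaving out libraries.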

Additional observations from a re-analysis of the deposited data

Results flagged for a closer look

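In 78 sets of 4 libraries, 74 from the 37 named genes and 4 from the share and median deviation of the whole group, 5 held a library far from the other 3 by Dixon's test; chance gives about 1 in 20. Carubv10006368m stood at 22.9 FPKM in Cr_bud 1 while the other C. rubella buds were at 2.36 or less. Carubv10012439m stood at 5.61 FPKM in Cr_bud 1, with the others at 3.61 or less. Carubv10021513m stood at 554 FPKM in Cr_bud 3, with the others at 303 or less. Carubv10027965m stood at 5.11 FPKM in Cr_bud 3. Among C. grandiflora buds, Carubv10011383m stood at 107 FPKM in Cg_bud 4.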

How the results depend on the processing

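All 150 values under the alternatives stayed within the limits set for them. These were 1.5-fold for counts, shares and SDs, and the same sign within 0.295 for the median difference. The limits are wide: the genes called lower in C. rubella over all tested rows fell from 2037 to 1384 without Cr_bud 4 and still counted as kept. Leaving out 1 bud library at a time gave 158 genes (without Cr_bud 4) to 197 (without Cr_bud 3), with a median difference of -1.38 to -1.19. Of the original 184 genes, the fits without 1 library called 99 to 140 lower in C. rubella, where 1384 to 2029 of all tested rows were. A pseudocount of 5 gave 141 genes and one of 0.1 gave 192. Quantile scaling gave 183, of which 179 were among the 184. Without both Cr_bud 4 and Cg_bud 3, an alternative chosen after seeing the data, the rule gave 166 genes (159 of them among the 184) with a median difference of -1.18. The share of genes with the larger SD in C. rubella and the direction of each gene without single libraries, given with the results, were also added after seeing the data. Carubv10021405m was the 1 gene that changed direction, to 0.31 without Cr_bud 4. The fits without a library kept the rows tested with all 8. No paired analysis was possible because the labels carry no replicate numbers shared between the species. Depth is unknown, so the counting error of genes near 1 FPKM cannot be given.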

Other observations

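Besides the 184 genes, 33 rows were at 0 in every leaf, averaged at least 5 FPKM in C. grandiflora buds and met the difference cut, but fell under the bud mean. Their means lay between 0.125 and 2.94 FPKM in C. rubella and between 5.11 and 8.48 FPKM in C. grandiflora, with a median difference of -1.32. All C. rubella libraries lay below all C. grandiflora libraries in 24 of them, where 14.1% of tested rows showed this order. The 33 were picked on this contrast, so nothing is read from the count. Of the 33, 4 were below 1 FPKM in every C. rubella bud, and 3 of these stood at 0.5 FPKM in Cr_bud 1 and 0 in the other C. rubella libraries, against uneven values in C. grandiflora. Carubv10010924m had 0.44, 25, 0.66 and 6.16 FPKM in Cg_bud 1 to 4, Carubv10003336m had 18.2, 0, 9.22 and 0 FPKM, and Carubv10011861m had 0.65, 15.9, 0 and 4.29 FPKM. These 3 did not pass the filter of the fit. The fourth, Carubv10025695m (scaffold 4, 7335366 to 7336485), had 0.54, 0.94, 0.52 and 0.62 FPKM in Cr_bud 1 to 4 and 12.3, 6.79, 9.17 and 4.43 FPKM in Cg_bud 1 to 4. The largest difference of the 33 was in Carubv10027673m (scaffold 8, 7918541 to 7919309), with 1.46, 0, 1.44 and 0 FPKM in C. rubella and 8.67, 5.09, 6.92 and 10.2 FPKM in C. grandiflora. Neither Carubv10027673m nor Carubv10025695m overlapped between species. The genes named here were chosen after their values were seen. With the level cut set on the C. grandiflora mean, 217 of 340 bud-only rows met the difference cut, where 184 of 324 did under the rule. That cut admits rows through the species in which they are high. A larger share is thus partly built in, and nothing is read from it.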
